A study of Mus musculus with 4 samples.

Results

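Complement is a set of blood and tissue proteins that tag microbes and dying cells for removal. The classical pathway starts when C1q binds a target, the alternative pathway amplifies tagging through factor B and properdin, and both converge on C3. The small fragments released from C3 and C5 act on leukocytes through the receptors C3ar1 and C5ar1. In the lung, complement proteins are made locally as well as brought by blood. The 9 genes described here, of 32285 in the count matrices, were chosen by name and comprise 3 C1q chains (C1qa, C1qb, C1qc), the central components C3 and C4b, the alternative pathway proteins Cfb (factor B) and Cfp (properdin), and the receptors C3ar1 and C5ar1. All 9 were found once in each matrix.

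Whole lungs came from Galt gene-edited (GAL) mice and from wild-type (WT) mice, 2 droplet single-cell RNA libraries per group. Galt encodes an enzyme of galactose metabolism. The labels give no kind of edit, strain, age or sex and tie no library to an animal, so the p-values below measure the spread between these samples, which may be technical. Galt itself had 13.4 and 10.6 CPM (UMI counts scaled to one common total per sum) in the GAL whole-lung sums and 11.4 and 11.4 CPM in the WT sums; UMIs outside an edited part check nothing about the genotype. Libraries held 56218178 to 62406681 UMIs and 10757 to 13515 kept cells, with median UMIs per cell of 3704 and 2839 in GAL and 2359 and 2361 in WT. Pairs of libraries shared 92 to 115 barcodes, at most 0.939% of the cells of the smaller library.

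Cells were assigned to a type by counting markers that include none of the 9 genes. This gave a type to 41153 of 47680 cells (86.3%), and 27 types with at least 50 cells are described. The type names rest on RNA markers alone. Lineage genes that the gates did not use were compared: Ptprc, the pan-leukocyte gene, was 361 CPM in interstitial macrophages and 17.4 CPM in adventitial fibroblasts. Epcam, an epithelial adhesion gene, was 206.5 CPM in alveolar macrophages, near the 217 CPM of alveolar type 2 cells. Csf1r, a receptor gene of monocytes and macrophages, was 138 CPM in alveolar type 1 cells, against 75.3 CPM in alveolar and 535 CPM in interstitial macrophages. The part of other cells' RNA in these gates was not tested. The classical monocyte gate held fibroblast RNA, with 56.9 CPM of the collagen gene Col1a2 against 8.39 CPM in interstitial macrophages and 2519 CPM in adventitial fibroblasts. T cells served as the background, taken here as free RNA. Whether T cells made some of this RNA themselves was not tested. A type is called a source of a gene here when its mean was at least 5 times the T cell mean and every library lay above all T cell libraries.

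**Figure D1:**
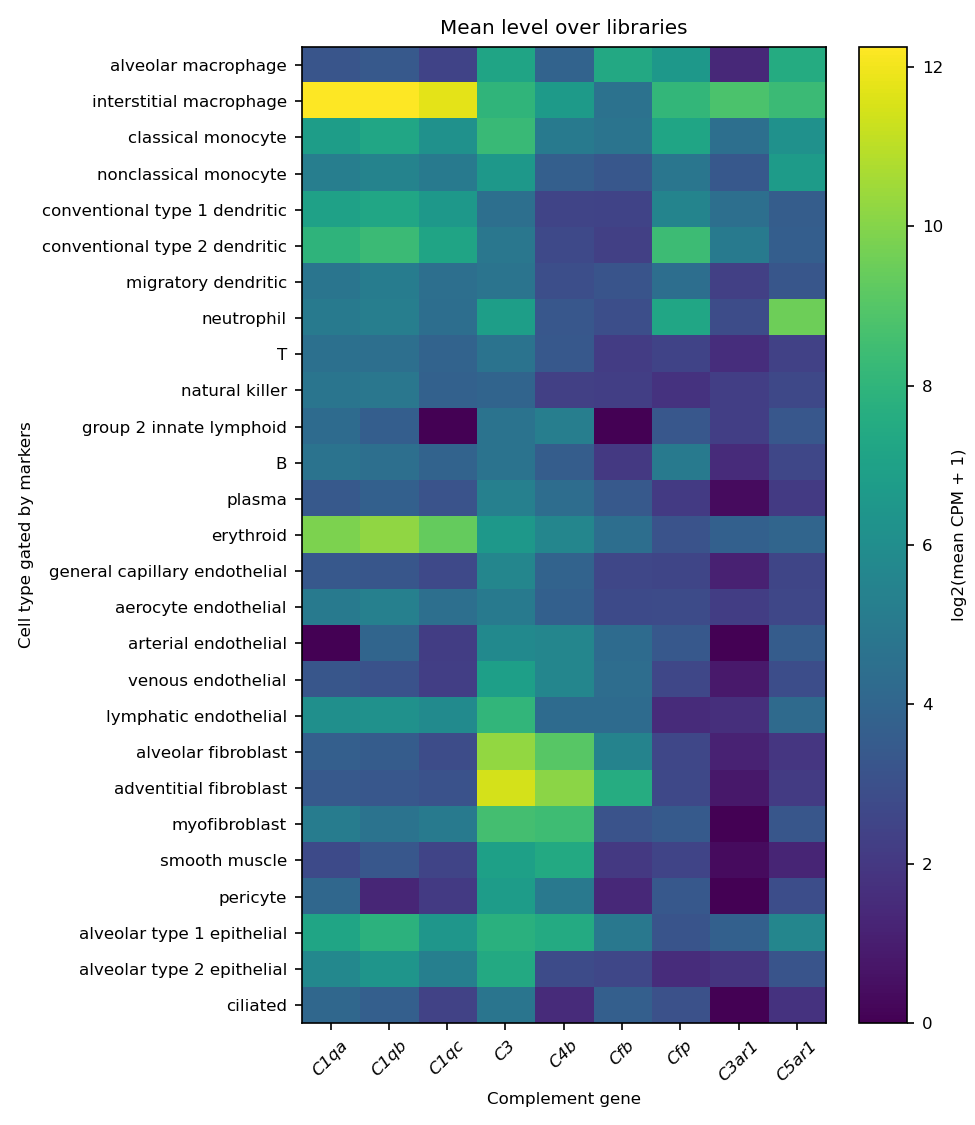
Mean level of each of the 9 genes over libraries, as log2(mean CPM + 1) by colour, with cell types in rows and genes in columns. The C1q chains are brightest in interstitial macrophages (4816 CPM for C1qa), C3 and C4b in fibroblasts, and C5ar1 in neutrophils (751 CPM).

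RNA of the C1q chains was concentrated in interstitial macrophages, the macrophages of the lung's connective tissue. In alveolar macrophages, which patrol the airspaces, its mean CPM was below that of T cells. Alveolar macrophages held 1281 C1q UMIs in 6019 cells, at a median depth of 9837 UMIs. T cells held 1437 in 8081 cells, at a median depth of 2718 UMIs. The part of depth in this order was not tested. C1qa, C1qb and C1qc encode the A, B and C chains that assemble into the C1q molecule. Their genes lie side by side on chromosome 4 of GRCm38, all on the minus strand: C1qb at chr4:136880129-136886187, C1qc at chr4:136889804-136893065 and C1qa at chr4:136895917-136898803. The intervals between them measure 3616 and 2851 bases.

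Upstream stretches of the C1q genes with RefSeq entries are shown because these neighbouring genes share one pattern over cell types; RefSeq promoters (GRCm38.p6) matched 6 of the 9 members, with C1qa, C4b and Cfb not matched. Each reads 5′ to 3′ on the gene's strand and ends before the gene start; capitals mark a motif match.
C1qb: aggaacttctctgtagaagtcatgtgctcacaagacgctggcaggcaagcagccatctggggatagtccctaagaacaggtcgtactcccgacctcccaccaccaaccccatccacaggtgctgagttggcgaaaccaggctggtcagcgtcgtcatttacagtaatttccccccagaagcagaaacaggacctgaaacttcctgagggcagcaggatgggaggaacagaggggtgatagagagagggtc
C1qc: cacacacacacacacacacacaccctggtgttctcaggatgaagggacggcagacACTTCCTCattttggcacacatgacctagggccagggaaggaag
These lie at chr4:136886201-136886450 and chr4:136893066-136893164, minus strand. The C1qc stretch is shorter because the bases inside the annotated gene are left out. The 250 bases before each RefSeq start were searched on both strands for GAGGAAGT (PU.1, a myeloid factor), TTGCNNAA (C/EBP), the TATA box and the motifs of NF-kB and the interferon response element. The C1qc stretch held 1 PU.1 match, on the strand opposite to the gene, and C1qb held no match to any of the motifs. Of 32851 promoters, 2.44% held the PU.1 letters, 2.98% those of the interferon element, 1.41% those of NF-kB, 9.56% those of C/EBP and 12.4% the TATA box. A match is a description of the letters only.

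C1qa reached 5676 and 3992 CPM in GAL interstitial macrophages, against 4390 and 5207 CPM in WT. C1qb reached 5579 and 4212 CPM in GAL, against 4386 and 5312 CPM in WT. C1qc reached 3827 and 3045 CPM in GAL, against 3347 and 3580 CPM in WT. The GAL and WT libraries overlapped for all 3 chains, and each interstitial macrophage library was above every other type. Nearest were erythroid-gated cells, on few cells, at up to 1880 CPM of C1qa, 2482 CPM of C1qb and 1429 CPM of C1qc. Over the 4 libraries the means were 4816 ± 764 CPM for C1qa, 4872 ± 675 CPM for C1qb and 3450 ± 334 CPM for C1qc (SD, n = 4).

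Type 2 conventional dendritic cells, which present antigen to helper T cells, were a lesser source. C1qa was 446 and 122 CPM there in GAL and 236 and 180 CPM in WT, a mean of 246 ± 141 CPM, and type 1 conventional dendritic cells averaged 129 ± 23.2 CPM (SD, n = 4 each). These ranges overlapped, so their order is not resolved. T cells averaged 22.0 ± 7.49 CPM and alveolar macrophages 8.51 ± 4.48 CPM of C1qa. Classical monocytes spread from 22.6 to 181 CPM and overlapped T cells, so they did not count as a source.

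C1q was present in nearly all interstitial macrophages but in a minority of dendritic cells. With each cell thinned to 1000 UMIs, C1qa was seen in 98.9% and 92.5% of GAL and 93.6% and 97.7% of WT interstitial macrophages, against 0.600% to 1.23% of T cells (unthinned 96.3% to 99.3%, against 1.68% to 3.63%). Median depths were 4296 to 5980 UMIs in the macrophages and 2121 to 3378 UMIs in the T cells. Shallower cells left out numbered 5 to 13 interstitial macrophages and 18 to 66 T cells per library. At least 20 C1q UMIs per 10000 were carried by 99.3% and 96.4% of GAL and 96.3% and 100% of WT interstitial macrophages. The same level was met by 16.4% and 6.92% of GAL and 8.77% and 7.79% of WT type 2 dendritic cells, and by 0.0648% to 0.242% of T cells. The median type 2 dendritic cell held 0 C1q UMIs in each library. Summed markers of interstitial macrophages (15 genes) stood at 362 to 476 CPM in type 2 dendritic cells and 58.4 to 112 CPM in T cells; their part in the dendritic C1q was not tested.

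The chains made up similar shares of C1q in every interstitial macrophage library. In interstitial macrophages, of 73744 C1q UMIs, 36.6% were C1qa, 37.0% C1qb and 26.4% C1qc, not scaled for transcript length. By library the C1qa share ran from 35.5% to 37.6%. The 4674 C1q UMIs of type 2 dendritic cells split into 34.5%, 45.4% and 20.1%, and the 1437 of T cells into 38.4%, 37.2% and 24.4%. Across 93 library and type sums, log2(CPM + 1) of the chains correlated at r = 0.903 (C1qa with C1qb), 0.895 (C1qa with C1qc) and 0.879 (C1qb with C1qc); these sums share libraries and depth. The non-member gene most alike was Ms4a7, a macrophage membrane gene, for each chain (r = 0.80 for C1qa, 0.84 for C1qb and 0.80 for C1qc, among 13514 genes). Ccl12 (0.77), Fcrls (0.76), Slamf8 (0.75) and Clec10a (0.74) followed for C1qa. Ms4a7 and Ccl12 are among the markers that gate interstitial macrophages and Clec10a among those of type 2 dendritic cells, so the gates build in part of that likeness; Fcrls and Slamf8 are in no marker list.

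**Figure D2:**
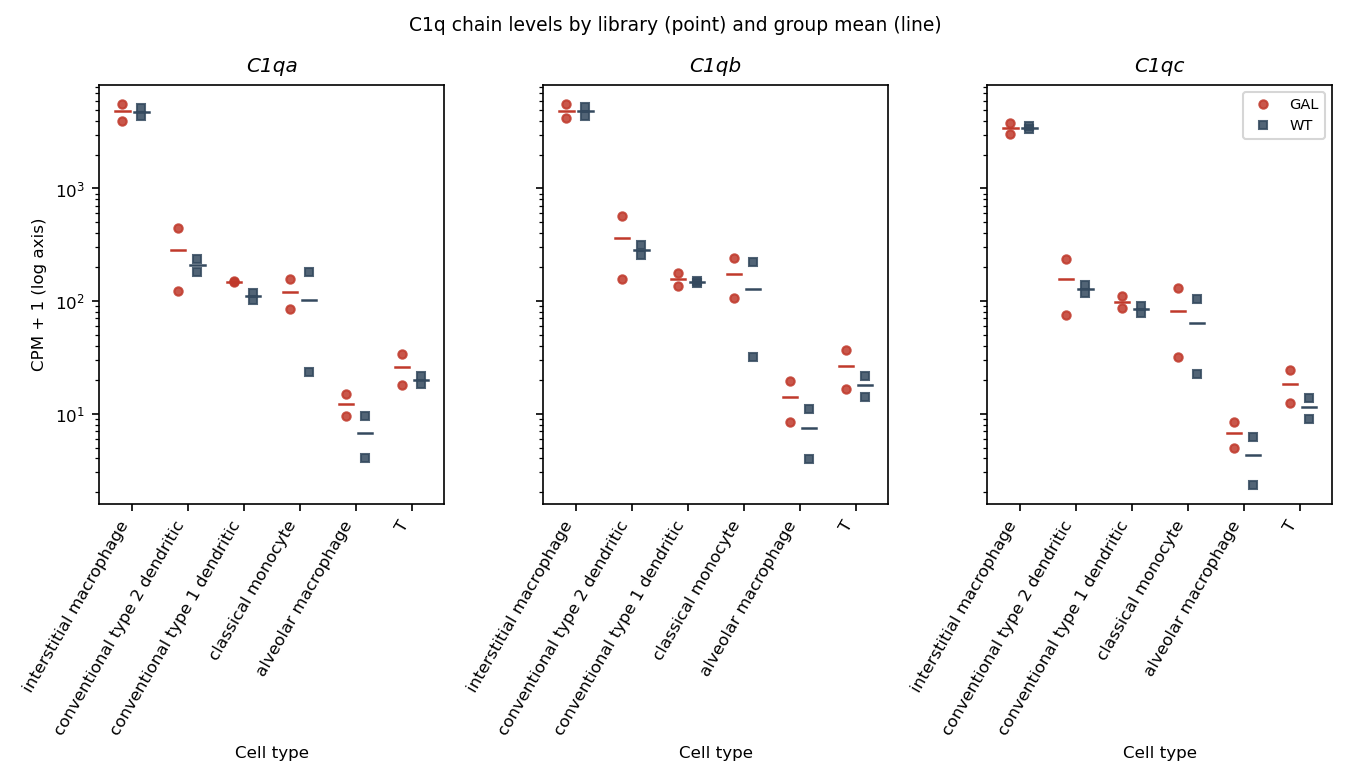
Levels of C1qa, C1qb and C1qc (CPM + 1, log axis) in 6 cell types, with 1 point per library and a line at the mean of each group, GAL left of WT. Interstitial macrophages lie highest in every library, at 3992 to 5676 CPM of C1qa in the 4 libraries, and alveolar macrophages at 3.01 to 14.0 CPM.

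Of all kept C1qa UMIs, 63.5% lay in interstitial macrophages, which made up 2.28% of cells, and 23.5% lay in cells left without a type. Of the 1088 interstitial macrophages, 278 had a leading marker list only 1.2 to 1.5 times the next, and 204 further cells led by that list were left out. By the rule above erythroid-gated cells also counted as a source of C1qa, on few cells. Erythroid-gated cells reached 1880 and 775 CPM of C1qa in GAL and 46.8 CPM in WT replicate 2, in gates of 14, 19 and 102 cells. Marker sums of interstitial macrophages were 1542, 1764 and 678 CPM in those 3 erythroid sums; their part in the C1q was not tested.

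C3, C4b and Cfb had their highest mean levels in adventitial fibroblasts. C3 encodes the component on which all pathways converge, and C4b encodes C4, cleaved by the classical and lectin pathways. Cfb encodes factor B, the protease subunit of the alternative convertase. C3 lies at chr17:57203970-57228136, C4b at chr17:34728380-34743882 and Cfb at chr17:34856374-34862518, all on the minus strand of GRCm38. C4b has the near-identical neighbour C4a, whose highest mean over types was 3.53 CPM, in adventitial fibroblasts; reads could be split between them in counting. Cfb shares exons with Gm20547, a gene not listed in the matrices.

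The C3 promoter is shown for its motif match, in capitals, a C/EBP-type sequence on the gene's strand.
C3: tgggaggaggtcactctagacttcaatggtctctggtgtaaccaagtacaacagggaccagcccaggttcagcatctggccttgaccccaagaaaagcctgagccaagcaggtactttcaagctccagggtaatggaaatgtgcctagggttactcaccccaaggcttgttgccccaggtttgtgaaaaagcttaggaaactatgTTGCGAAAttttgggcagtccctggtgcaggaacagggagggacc
This stretch is chr17:57228137-57228386, minus strand, and no other motif searched was in it. Among the other members with a RefSeq promoter, C3ar1 held an NF-kB match on the opposite strand and a TATA match on the gene's strand. C5ar1 and Cfp held no match.

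C3 reached 1470 and 4139 CPM in GAL adventitial fibroblasts, the fibroblasts around vessels and airways, and 4167 and 1570 CPM in WT. In alveolar fibroblasts it was 725 and 1463 CPM in GAL and 2221 and 528 CPM in WT. GAL replicate 2 and WT replicate 1 were thus the high libraries in both types, and the groups overlapped. T cells averaged 24.2 ± 15.0 CPM. Lower sources were myofibroblasts at 385 ± 266 CPM, classical monocytes at 310 ± 114 CPM, lymphatic endothelium at 263 ± 119 CPM, interstitial macrophages at 259 ± 168 CPM and alveolar macrophages at 143 ± 82.3 CPM (SD, n = 4 each). Alveolar type 1 cells at 219 ± 212 CPM and type 2 cells at 172 ± 99.9 CPM (SD, n = 3 each) were sources too. The type 1 gate held 144 cells in GAL replicate 1 and 15 and 12 cells in WT. Neighbours in this order overlapped in their ranges, so the order is not resolved.

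GAL replicate 2 and WT replicate 1 were also the high libraries in alveolar macrophages. C3 in alveolar macrophages was 104 and 252 CPM in GAL and 156 and 60.8 CPM in WT. Cfb there was 100 and 311 CPM in GAL and 184 and 70.3 CPM in WT. Both genes were highest in GAL replicate 2 and lowest in WT replicate 2. C3 UMIs per UMI of the fibroblast gene Dcn in alveolar macrophages were 9.60 and 71.7 in GAL and 45.9 and 8.85 in WT, against 0.206 and 0.632 in GAL and 0.794 and 0.193 in WT adventitial fibroblasts. In every library the macrophage ratio exceeded the adventitial ratio. So did the T cell ratio, at 0.54 and 2.88 in GAL and 4.29 and 0.67 in WT. Dcn is among the markers that gate adventitial fibroblasts. Whether free RNA or cell state moved with the library was not tested.

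C4b was 970 and 1302 CPM in GAL adventitial fibroblasts and 1345 and 885 CPM in WT. Alveolar fibroblasts held 570 and 447 CPM in GAL and 797 and 321 CPM in WT. Every adventitial library was above every alveolar one. Myofibroblasts averaged 343 ± 98.4 CPM, smooth muscle 175 ± 32.6 CPM and interstitial macrophages 103 ± 54.9 CPM, against 9.51 ± 6.85 CPM in T cells (SD, n = 4 each).

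Cfb was 147 and 203 CPM in GAL adventitial fibroblasts and 265 and 155 CPM in WT, a mean of 193 ± 54.4 CPM that overlapped alveolar macrophages at 166 ± 108 CPM (SD, n = 4 each). Alveolar fibroblasts averaged 44.1 ± 25.0 CPM, classical monocytes 24.8 ± 15.7 CPM and venous endothelium 19.7 ± 10.9 CPM (SD, n = 4 each). Alveolar type 1 cells averaged 29.1 ± 28.7 CPM (SD, n = 3), on 15 and 12 cells in the WT libraries. Alveolar macrophages made up 12.6% of kept cells, with a median of 9837 UMIs, and 71.5% of all Cfb UMIs lay in them, against 12.2% in adventitial fibroblasts. For C3 the shares were 41.0% in adventitial fibroblasts, 15.8% in alveolar fibroblasts and 14.9% in alveolar macrophages. For C4b they were 46.5% in adventitial and 21.7% in alveolar fibroblasts.

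The genes most like C3 over the 93 sums were C2 (r = 0.72), the component that pairs with C4, then Igf1 (0.71) and Serpina3n (0.69). C4b was most like Col6a3 (0.86), Mfap5 (0.85) and Dpt (0.85), genes of extracellular matrix. Cfb was most like Htra4, at a lower r of 0.60. Among the members, C3 correlated with C4b at 0.741 and with Cfb at 0.636, C4b with Cfb at 0.339, and C3 with C1qa at 0.198.

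**Figure D3:**
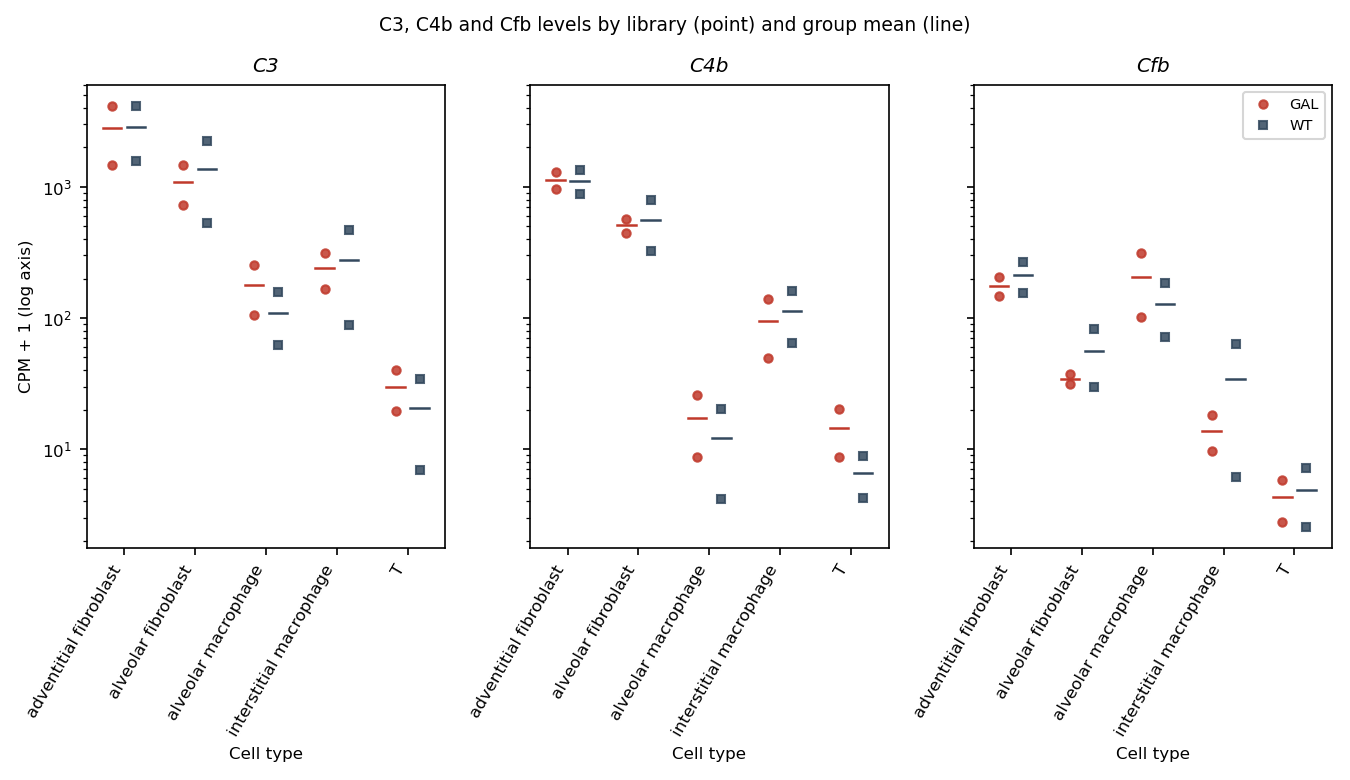
Levels of C3, C4b and Cfb (CPM + 1, log axis) in 5 cell types, with 1 point per library and a line at each group's mean, GAL left of WT. For C3 the 2 points of each group lie apart, at 1470 and 4139 CPM in GAL and 4167 and 1570 CPM in WT adventitial fibroblasts.

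Properdin, encoded by Cfp (chrX:20925454-20931555, minus strand), stabilises the alternative convertase. It was highest in type 2 dendritic cells, at 285 and 308 CPM in GAL and 385 and 354 CPM in WT, and in interstitial macrophages, at 362 and 170 CPM in GAL and 265 and 322 CPM in WT. The ranges of these types overlapped. Neutrophils averaged 153 ± 11.3 CPM, classical monocytes 147 ± 63.2 CPM and alveolar macrophages 90.7 ± 17.0 CPM (SD, n = 4 each), and T cells 4.49 ± 0.757 CPM. Type 1 dendritic cells averaged 45.8 ± 17.2 CPM, B cells 31.2 ± 11.8 CPM and nonclassical monocytes 27.3 ± 7.96 CPM. Alveolar macrophages held 40.0% of all Cfp UMIs and type 2 dendritic cells 18.6%. The genes most alike were Cd14 (r = 0.81), the lipopolysaccharide co-receptor, Pira2 (0.80) and Ccr1 (0.80).

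The receptor C3ar1 (chr6:122847138-122856161, minus strand) was, like C1q, highest in interstitial macrophages. It was 583 and 391 CPM in GAL interstitial macrophages and 258 and 501 CPM in WT, a mean of 434 ± 141 CPM (SD, n = 4). Every interstitial macrophage library was above every other type. Type 2 dendritic cells averaged 31.9 ± 22.5 CPM, classical monocytes 21.4 ± 3.84 CPM, type 1 dendritic cells 21.3 ± 10.4 CPM and T cells 2.09 ± 1.15 CPM. Interstitial macrophages held 62.2% of its UMIs. Ms4a7 was again the most alike (r = 0.84), then Clec10a (0.82), both gating markers, and Nxpe5 (0.78), which is none. Among members C1qb was most alike (0.802).

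The receptor C5ar1 (chr7:16246743-16259540, minus strand) had another order. Neutrophils, the fast responders that follow C5 fragments, held 846 and 671 CPM in GAL and 664 and 822 CPM in WT. Interstitial macrophages held 448 and 235 CPM in GAL and 233 and 395 CPM in WT. Alveolar macrophages averaged 186 ± 68.1 CPM, nonclassical monocytes 105 ± 25.1 CPM and classical monocytes 72.1 ± 20.1 CPM, against 4.20 ± 1.35 CPM in T cells (SD, n = 4 each). Only the neutrophil range was clear of the next type. By UMIs, however, alveolar macrophages held 57.3% of all C5ar1 UMIs, neutrophils 21.1% and interstitial macrophages 9.98%. With cells thinned to 1000 UMIs, C5ar1 was seen in 53.1% and 47.7% of GAL and 46.9% and 50.8% of WT neutrophils, against 0.131% to 0.600% of T cells (unthinned 54.3% to 75.1%, against 0.617% to 1.60%); 19 to 190 shallower neutrophils per library were left out. The most alike gene was C5ar2 (r = 0.87), the second receptor of the same C5 fragment, then Clec4d (0.85).

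**Figure D4:**
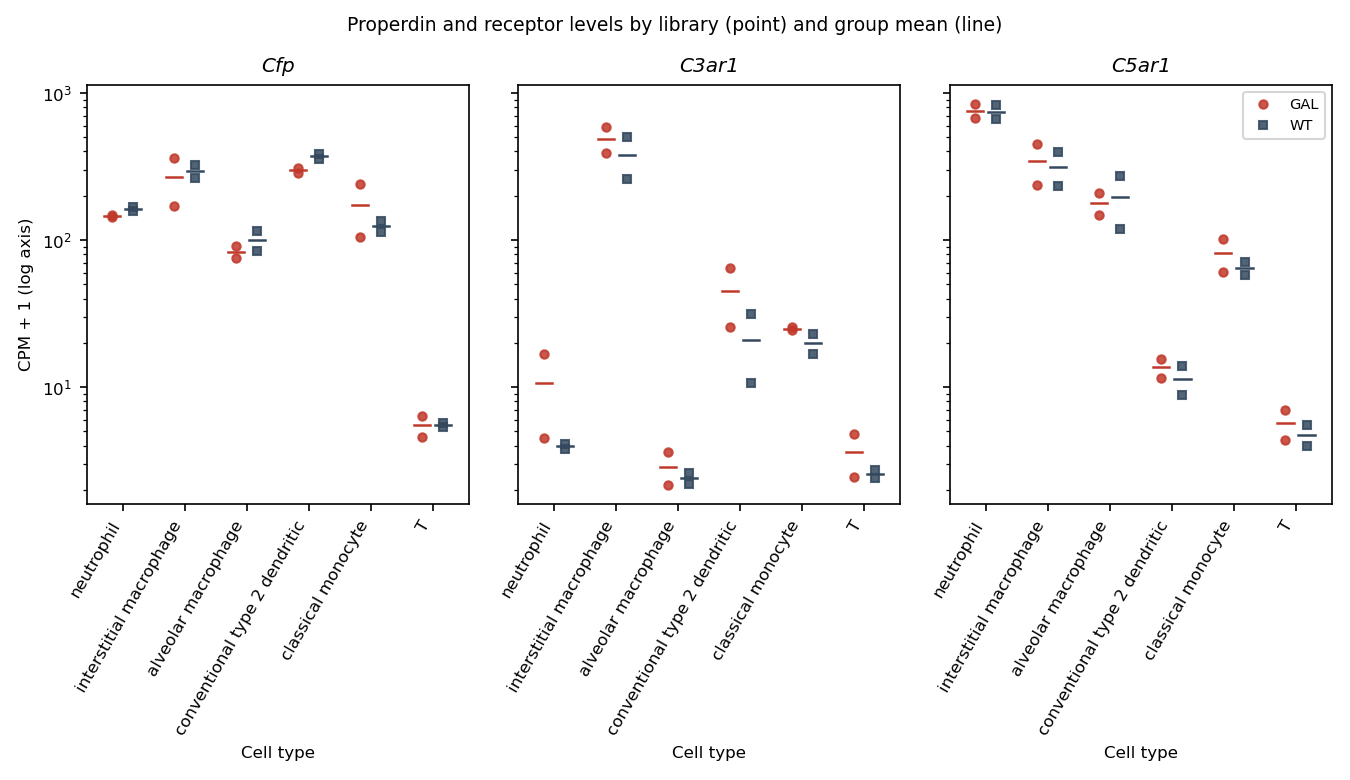
Levels of Cfp, C3ar1 and C5ar1 (CPM + 1, log axis) in 6 cell types, with 1 point per library and a line at each group's mean, GAL left of WT. C3ar1 stands at 258 to 583 CPM in interstitial macrophages, and C5ar1 is highest in neutrophils, at 664 to 846 CPM.

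Interstitial macrophages were also split by UMIs of Folr2 or Lyve1, genes of the perivascular subset. Cells with either gene had 191 and 134 CPM of C4b in GAL and 307 and 102 CPM in WT, against 21.3 and 15.5 CPM in GAL and 24.7 and 6.44 CPM in WT cells without. Cfp was 447 and 267 CPM in GAL and 323 and 431 CPM in WT cells with either gene, against 174 and 132 CPM in GAL and 211 and 158 CPM in WT cells without. In all 4 libraries C4b and Cfp were higher in the cells with either gene, and so were C1qa, C1qc, C3, C3ar1 and C5ar1. For C1qa the levels were 5878 and 4205 CPM in GAL and 4749 and 5498 CPM in WT cells with either gene, against 5233 and 3910 CPM in GAL and 4055 and 4766 CPM in WT cells without. C3 was 216 and 537 CPM in GAL and 506 and 117 CPM in WT cells with either gene, against 57.4 and 228 CPM in GAL and 433 and 41.8 CPM in WT cells without. For C3ar1 in GAL replicate 1 the levels were 584 and 583 CPM, nearly equal. C1qb and Cfb were higher in some libraries and lower in others. This split was chosen after earlier results were known and was not tested.

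Pairs of cell types were compared within libraries by edgeR's quasi-likelihood test with library as a block, adjusted over all genes by Benjamini-Hochberg. Cells of both types come from the same 4 libraries. Interstitial over alveolar macrophages, 8 of 9 members were higher and 1 lower, in a comparison where 49.4% of 12096 genes were called (25% higher and 24.5% lower). C1qa differed by a log2 fold change of 9.34 ± 0.38 (SE, edgeR adjusted p = 3.49e-09), C1qb by 9.24, C1qc by 9.76, and C3ar1 by 8.07 ± 0.27 (edgeR adjusted p = 9.93e-10). C4b (3.11), Cfp (1.70), C5ar1 (0.95) and C3 (0.91) were higher by less, with edgeR adjusted p of at most 0.00151. Cfb was the one lower, at −2.85 ± 0.36 (edgeR adjusted p = 4.01e-05). Of 40 other complement genes listed by role, 20 could be tested; 11 were higher and 2 lower. Among those with the smallest p were the receptor chain Itgam (4.97), the membrane regulator Cd55 (5.35) and the terminal component C6 (6.92).

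Adventitial over alveolar fibroblasts, C3 (log2 fold change 1.35 ± 0.09), C4b (1.22 ± 0.11) and Cfb (2.24 ± 0.13) were higher, of 7 members tested, with edgeR adjusted p of 8.65e-10, 5.66e-08 and 9.01e-11. In this comparison 34.6% of genes were called. The other members tested were C1qa (−0.57), C1qb (−0.56), C1qc (−0.0034) and Cfp (0.11), at or near the T cell level in both types. Of 16 other complement genes tested, 7 were higher and 5 lower. The proteases C1ra (1.45) and C1s1 (1.17) and the inhibitor Serping1 (0.83) were higher, and the terminal component C7 was lower (−1.25).

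Neutrophils over classical monocytes, 2 members were higher and 7 lower, with 66.9% of genes called. C5ar1 differed by 3.94 ± 0.17 (SE, edgeR adjusted p = 7.38e-10) and Cfp by 0.75 ± 0.19 (edgeR adjusted p = 0.00302). The C1q chains were lower by −1.18 to −1.48, at 32.4 CPM of C1qa in neutrophils, near the T cell level. C3 (−0.83), C4b (−1.28), Cfb (−1.19) and C3ar1 (−1.57) were lower too, with edgeR adjusted p of at most 0.0208. Without doublet removal 2 of the 9 were called, and Cfp then gave 0.35 and was not called. Members called numbered 5 without GAL replicate 2 or without WT replicate 1. With 1 library left out 4565 to 5179 genes were called, against 5348 with all 4. Of 12 other complement genes tested, 5 were higher and 2 lower; C5ar2 (3.04) and Itgb2 (0.92) were higher, and C1qbp (−2.52) was lower.

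Classical over nonclassical monocytes, 8 of 9 members were higher and 1 lower, with 30.6% of genes called. Cfp differed by 2.42 ± 0.18 and C3 by 1.79 ± 0.14 (SE, edgeR adjusted p = 4.15e-08 and 9.40e-08). C1qa (1.39), C1qb (1.67), C1qc (1.07) and C4b (1.39) were higher, with edgeR adjusted p of at most 0.0190. For each of these genes the libraries of both monocyte types overlapped those of T cells. Neither type thus counted as a source of them. C5ar1 was lower, at −0.48 ± 0.14 (edgeR adjusted p = 0.0172). C5ar1 lost its call without GAL replicate 1 or WT replicate 1, and C3ar1, at 1.33 ± 0.35, without either WT replicate. The count was 3 without the library block, 5 by DESeq2 and 5 with a gate of 4 markers. Cfb, called here at 1.43 ± 0.31, gave 0.09 and was not called when the leading marker list needed no margin over the next. The classical monocyte gate held fibroblast RNA, as given above, and its part in these values was not tested. Adventitial fibroblasts averaged 2836 CPM of C3, 1126 of C4b, 5.35 of Cfp and 9.68 of C1qa. Classical monocytes averaged 310, 31.8, 147 and 111 CPM of the same genes. Of 9 other complement genes tested, 3 were higher and 2 lower; Serping1 (1.06) was higher, and Itgb2 (−0.94) and Itgax (−1.79) were lower.

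Alveolar type 2 cells, the surfactant-making epithelium, were set against general capillary endothelium in 3 libraries, since their gate held 373 cells in GAL replicate 1, none in GAL replicate 2 and 63 and 57 in WT. Of 8 members tested 5 were higher and 0 lower, with 50.4% of genes called. C3 differed by 2.37 ± 0.18 (SE, edgeR adjusted p = 6.09e-12), at 172 ± 99.9 CPM in type 2 cells (SD, n = 3). C5ar1 was higher by 1.41 ± 0.56 (edgeR adjusted p = 0.0393), and C4b (0.049), Cfb (0.80) and Cfp (−0.68) did not pass. Levels of C5ar1 averaged 7.94 CPM in type 2 cells, 4.84 CPM in the endothelium and 4.20 CPM in T cells. The ranges of both types overlapped that of T cells, so neither counted as a source of C5ar1. The C1q chains also passed the test, at 3.26, 3.79 and 3.36 for C1qa, C1qb and C1qc, but C1qa was 84.6 CPM in GAL replicate 1 and 2.83 and 67.8 CPM in the WT libraries, a range that holds the T cell level. The 15 interstitial macrophage markers summed to 3335 CPM in GAL replicate 1 and 3562 and 3662 CPM in WT type 2 cells. Of these markers 1, 6 and 6 were at 0. WT replicate 1 thus had a sum of 3562 CPM beside 2.83 CPM of C1qa. The sum was not split by marker and may rest on few of them. The part of macrophage RNA in the C1q was not tested. Without GAL replicate 1, 3 members were called, and 3848 to 5581 genes were called with 1 library left out. Of 16 other complement genes tested, 6 were higher and 4 lower. Those with the smallest p were the terminal components Hc, which encodes C5 (10.68), and C6 (7.48) and the regulators Cd55 (4.27) and Clu (1.35), all higher.

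No member passed the test between GAL and WT, in the whole lung or in any of the 18 types with at least 30 cells in every library. edgeR called 0 of 16818 genes (0%) in the whole lung, with 922 at an unadjusted p under 0.05, and DESeq2 called 29 genes, 0 of them members. In the 18 types edgeR called 0 to 5 genes and 0 members, and DESeq2 called 0 to 52 genes and 0 members. The edgeR calls were 0.0861% of genes in nonclassical monocytes, 0.111% in migratory dendritic cells, 0.0169% in neutrophils, 0.00942% in general capillary endothelium and 0.0293% in myofibroblasts, and 0% in each of the other types. These zeros rest on all 4 libraries. Each fit with 1 library left out has 1 library in 1 of the groups. Some of these fits called genes in the whole lung, with no member among them, and members in some types. The simulated data with 2 libraries a group used a set dispersion of 0.05. They gave calls for 29% of 2-fold and 99% of 4-fold changes in the whole lung. The shares were 22% and 87% in interstitial macrophages and 23% and 95% in alveolar macrophages. Changed genes were drawn only from genes above a set mean count, so these shares do not cover genes of low count. The members' SEs of the log2 fold change ran from 0.18 (C3ar1) to 0.74 (Cfb) in the whole lung. These SEs ran from 0.21 (C1qc) to 0.80 (Cfb) in interstitial and from 0.25 (Cfp) to 0.93 (C4b) in alveolar macrophages. The share of such changes called at the members' own spread was not tested.

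C3ar1 had the smallest p in the whole lung, with both GAL libraries above both WT ones. It was 22.0 and 27.01 CPM after TMM scaling in GAL and 14.3 and 13.2 CPM in WT, a log2 fold change of 0.83 ± 0.18 (SE, unadjusted p = 0.00665, edgeR adjusted p = 0.767). It was the only member of 9 without overlap, and 20.1% of all genes tested were above in this way. A whole-lung sum cannot tell more cells of a type from more RNA per cell; interstitial macrophages, its main source, made up 2.58% and 2.82% of GAL and 2.61% and 1.31% of WT cells. Within interstitial macrophages C3ar1 gave 0.41 ± 0.35 (95% interval −0.40 to 1.21, edgeR adjusted p = 0.999), with overlapping groups. The other members' log2 fold changes in the whole lung were 0.37 for C1qa, 0.40 for C1qb, 0.39 for C1qc, 0.42 for C3, 0.75 for C4b, 0.27 for Cfb, −0.53 for Cfp and −0.24 for C5ar1, with overlapping groups. The median log2 fold change was 0.39 over the 9 members and 0.01 over all genes.

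C1q in interstitial macrophages was close between the groups. The log2 fold changes were 0.05 ± 0.23 for C1qa (95% interval −0.49 to 0.59), 0.06 ± 0.22 for C1qb (−0.46 to 0.58) and 0.03 ± 0.21 for C1qc (−0.45 to 0.52), each with an edgeR adjusted p of 0.999. In this type 0 of 9 members had groups without overlap, where 14.4% of genes were above and 14.6% below.

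C3 and its partners showed wide intervals. C3 in adventitial fibroblasts gave −0.06 ± 0.46 (95% interval −1.08 to 0.95) and in alveolar macrophages 0.81 ± 0.63 (−0.78 to 2.39). Cfb in alveolar macrophages gave 0.79 ± 0.71 (−0.99 to 2.57), and C4b in adventitial fibroblasts 0.01 ± 0.25 (−0.53 to 0.56). Without GAL replicate 2, C3 in alveolar macrophages gave −0.14 and Cfb −0.43, the opposite direction. C5ar1 in neutrophils gave 0.10 ± 0.24 (−0.43 to 0.63).

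In type 1 dendritic cells 4 of 9 members lay above and 1 below without overlap, where 17.7% and 17.6% of genes did. Cfp there was 45.1 and 23.4 CPM after TMM scaling in GAL and 62.8 and 54.0 CPM in WT, a log2 fold change of −0.83 ± 0.32 (unadjusted p = 0.0273, edgeR adjusted p = 0.833). C3ar1 there gave 1.23 ± 0.48 (edgeR adjusted p = 0.833), and without WT replicate 2 it was called at 2.17 (edgeR adjusted p = 0.00883), with WT replicate 1 as the only WT library. C3 in myofibroblasts, at 0.15, was called at 2.68 without WT replicate 1, and Cfb in classical monocytes, at 1.25, was called at 2.46 without that library. Each such fit has 1 WT library, assumed to vary like the GAL ones.

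The C1q chains ran higher in GAL in several types where their level was near that of T cells. In natural killer cells C1qa was 54.8 and 34.7 CPM after TMM scaling in GAL and 10.6 and 8.86 CPM in WT, a log2 fold change of 2.22 ± 0.42 (SE, unadjusted p = 5.09e-05, edgeR adjusted p = 0.355), the smallest unadjusted p of a member in any type. C1qb there gave 1.48 ± 0.37 and C1qc 1.45 ± 0.53 (edgeR adjusted p = 1 each). In B cells C1qc was 21.9 and 18.4 CPM in GAL and 9.41 and 7.38 CPM in WT, at 1.29 ± 0.29 (unadjusted p = 0.00154, edgeR adjusted p = 1). In alveolar fibroblasts C1qa gave 1.68 ± 0.41 (edgeR adjusted p = 0.547), and in neutrophils C1qb gave 1.36 ± 0.45 (edgeR adjusted p = 1). All of these had both GAL libraries above both WT libraries, as 13.6% of genes did in natural killer cells, 13.3% in B cells, 17.9% in alveolar fibroblasts (17.2% were below) and 14.8% in neutrophils. None passed the test. In adventitial fibroblasts C1qb lay below without overlap, at −1.37 ± 0.40 (edgeR adjusted p = 0.999), as 16.8% of genes did. In T cells C1qa gave 0.40 ± 0.34 with overlapping groups. The part of free RNA in these values was not tested.

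None of the other complement genes passed the test between GAL and WT, by edgeR, in the whole lung or in a type. In the whole lung the smallest p were those of Vtn (2.10 on the log2 scale), Cd59a (1.25), C1s1 (0.85) and C1ra (0.69), each with an edgeR adjusted p of 0.767. Of 29 tested there, 19 were positive, with a median of 0.62. As for C3ar1, a whole-lung sum cannot tell more cells of a type from more RNA per cell. Alveolar fibroblasts made up 7.08% and 1.93% of GAL and 2.12% and 2.02% of WT cells. For adventitial fibroblasts the shares were 5.35% and 2.93% in GAL and 2.34% and 2.71% in WT. C1s1 was 84.5 and 49.8 CPM after TMM scaling in GAL and 43.2 and 31.0 CPM in WT. The part of cell shares in these values was not tested. In general capillary endothelium Colec12 (1.02), C1s1 (1.30) and Serping1 (1.02) had edgeR adjusted p of 0.210, 0.232 and 0.240, and both GAL libraries were above both WT libraries for each. Of the 11 tested there, 5 lay above and 2 below without overlap, where 16% and 14.9% of all genes did.

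The difference between 2 types' GAL effects was tested by a type by genotype term. No member passed in any of the 5 pairs by edgeR. The smallest adjusted p was that of C1qb between adventitial and alveolar fibroblasts, 0.0696, at levels near those of T cells in both. Cfb between interstitial and alveolar macrophages gave −1.94 ± 0.51 (unadjusted p = 0.00395, edgeR adjusted p = 1).

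**Figure D5:**
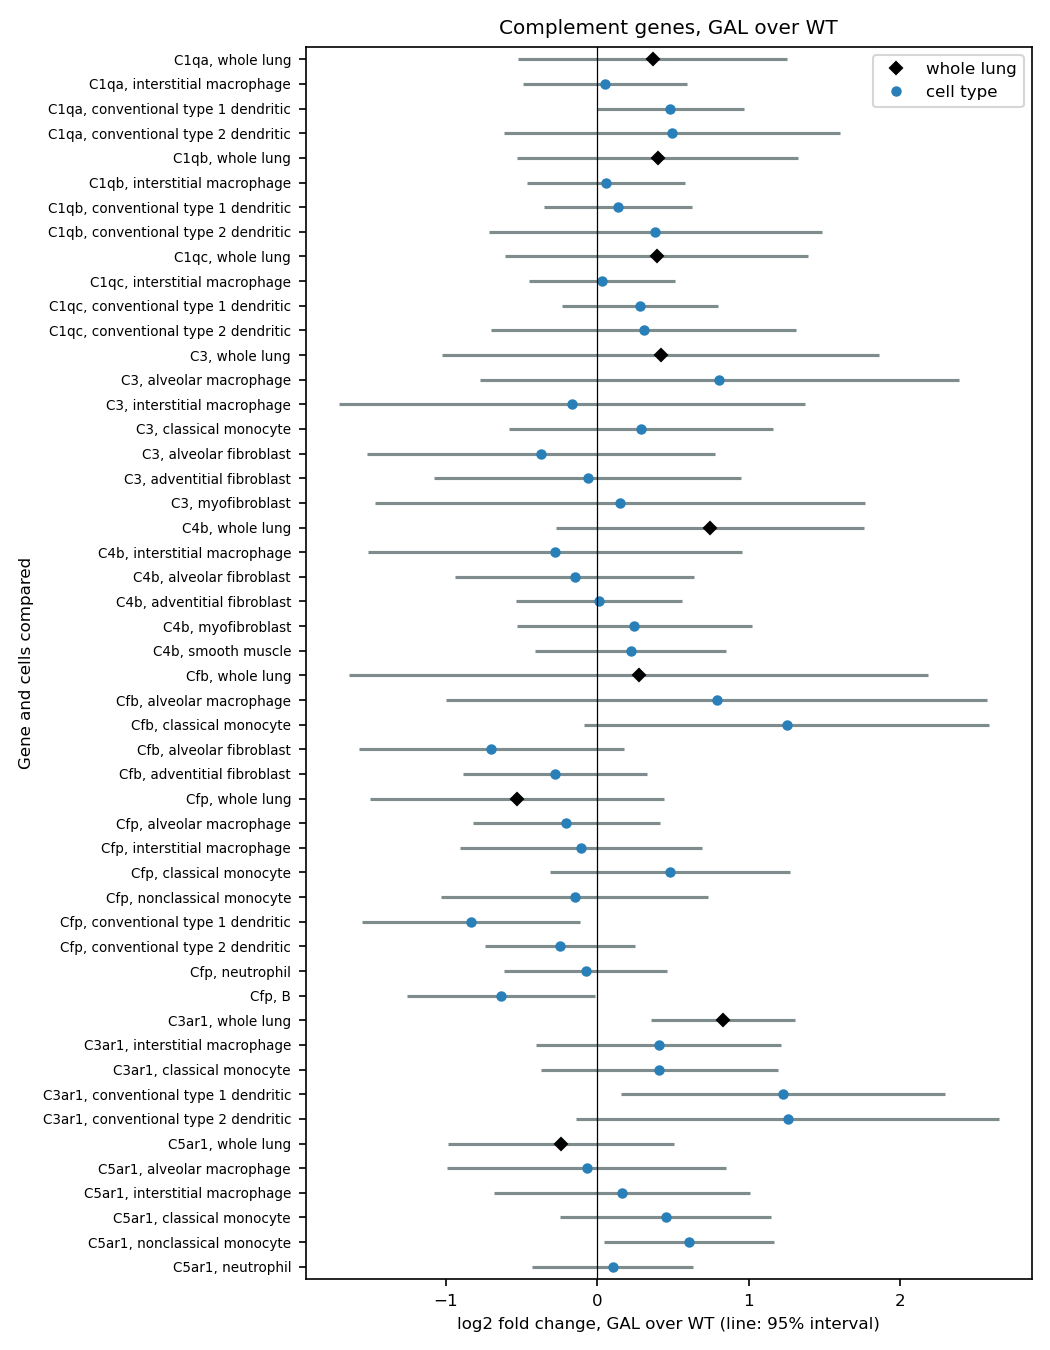
Log2 fold change of GAL over WT for each member in the whole lung (diamonds) and in its tested source types (circles), with 95% intervals from edgeR as lines. Intervals of C1q in interstitial macrophages are narrow around 0, those of C3 and Cfb are wide, and C3ar1 in the whole lung lies at 0.83.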

How the data were processed

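The authors deposited raw UMI counts per gene and barcode, 1 matrix of 32285 genes per library, the lowest barcode at 500 UMIs. Per the labels, lungs were digested and cells loaded on SeekOne droplets, with polyA RNA read as paired 150 nt reads. Per the submitters' processing notes the genome was GRCm38/mm10 and the tools included STAR, fastp and Seurat (versions not given); the gene annotation and strand setting are not given in the sources used here.

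Cells with at least 500 UMIs and 300 genes and at most 20% mitochondrial UMIs were kept. Scrublet (scanpy 1.11.5) scores removed the top cells up to 0.8% per 1000 cells, since its automatic threshold marked 0.00823% in GAL replicate 1. A cell entered the type whose marker list (32 lists, 255 markers) had the largest detected share, with at least 3 markers and 1.2 times the next list. Counts were summed per library and type and tested with edgeR 4.0.16 (filterByExpr, TMM, quasi-likelihood, 95% intervals); DESeq2 1.42.0 was an alternative. Genes are called at a Benjamini-Hochberg adjusted p under 0.05. Levels are CPM of all counts of a sum, or after TMM scaling where said. The procedure was tested on simulated data with 200 changed genes and a set dispersion of 0.05. Gene positions come from GENCODE M21 (GRCm38).

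The members and lists were chosen with earlier results of these data known. The rule was to name every member in every comparison; between GAL and WT within a type, the text names members with a result to describe and gives the others as counts. It names up to 4 other complement genes with the smallest p (1 such gene is not reported here by name, though the counts include it), and up to 5 most alike genes per member, among genes with at least 20 CPM in a sum. After the data were seen, the doublet rule and the gate were set: 2 or 3 markers and margins of about 1, 1.2, 1.5 and 2 were viewed beside cell counts and the members' pooled levels, not beside GAL against WT. The source rule of 5 times the T cell mean was also set then; it sets which genotype results within types were carried through the alternatives and plotted. Genotype values printed for other types were chosen after they were seen. Gate margins of 1 and 1.5 were added as alternatives after the data were seen. Other alternatives were another normalization, tool, filter, doublet, mitochondrial, depth and gate setting, and each library left out.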

Additional observations from a re-analysis of the deposited data

How the results depend on the processing

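No paired analysis was possible because the labels number no replicates: those used here only name libraries in accession order, and the labels give no animal, litter or batch that ties a GAL library to a WT library. Of 50 member results of GAL against WT, 558 of 623 alternatives kept direction and side of the threshold, 62 turned the direction and 3 were called; none of the 50 was called to begin with. Of 23 member results between types, 306 of 322 alternatives stayed and 16 lost the call, with no change of direction. The cause of these changes was not tested. The 50 results of GAL against WT are those in the whole lung and in the source types of each gene. Results of members in other types are left out of the 623 alternatives. Calls among them enter only the counts of members called given below.

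With DESeq2 in place of edgeR, genes called between GAL and WT numbered 29 in whole lung, 3 in alveolar macrophage, 1 in interstitial macrophage, 16 in classical monocyte, 52 in nonclassical monocyte, 1 in conventional type 1 dendritic, 0 in migratory dendritic, 15 in general capillary endothelial, 1 in aerocyte endothelial and 2 in alveolar fibroblast. There, genes called between types numbered 1087 in classical monocyte over nonclassical monocyte, 1997 in adventitial fibroblast over alveolar fibroblast and 3608 in alveolar type 2 epithelial over general capillary endothelial. There, members called between types numbered 5 in classical monocyte over nonclassical monocyte.

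With no filter on low counts, genes called between GAL and WT numbered 24 in interstitial macrophage, 200 in classical monocyte, 202 in nonclassical monocyte, 81 in conventional type 1 dendritic, 48 in conventional type 2 dendritic, 20 in migratory dendritic, 38 in neutrophil, 18 in natural killer, 23 in B, 145 in general capillary endothelial, 65 in aerocyte endothelial, 67 in alveolar fibroblast, 33 in adventitial fibroblast, 2 in myofibroblast, 22 in smooth muscle and 37 in ciliated. There, members called between GAL and WT numbered 1 in interstitial macrophage, 1 in natural killer, 2 in alveolar fibroblast and 1 in smooth muscle.

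With a gate of 4 markers, genes called between GAL and WT numbered 2 in classical monocyte, 27 in nonclassical monocyte, 1 in migratory dendritic and 2 in myofibroblast. There, members called between types numbered 5 in classical monocyte over nonclassical monocyte and 5 in neutrophil over classical monocyte. There, the log2 fold change turned to −0.054 for Cfp in classical monocyte and 0.080 for Cfp in nonclassical monocyte.

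With RLE size factors, genes called between GAL and WT numbered 3 in nonclassical monocyte and 3 in migratory dendritic.

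With no doublet removal, genes called between GAL and WT numbered 0 in nonclassical monocyte, 1 in conventional type 1 dendritic, 0 in migratory dendritic, 0 in neutrophil, 0 in general capillary endothelial and 1 in aerocyte endothelial. There, members called between types numbered 2 in neutrophil over classical monocyte and 6 in adventitial fibroblast over alveolar fibroblast. There, the log2 fold change turned to 0.065 for Cfp in neutrophil, −0.11 for C3 in myofibroblast and −0.15 for C4b in smooth muscle.

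With a gate margin of 1.5, genes called between GAL and WT numbered 72 in nonclassical monocyte, 0 in migratory dendritic, 0 in neutrophil, 2 in general capillary endothelial, 7 in aerocyte endothelial and 2 in myofibroblast. There, the log2 fold change turned to 0.052 for Cfp in nonclassical monocyte, −0.46 for C1qb in conventional type 1 dendritic and −0.15 for C1qc in conventional type 1 dendritic.

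With a gate margin of 1, genes called between GAL and WT numbered 0 in nonclassical monocyte, 0 in migratory dendritic, 0 in neutrophil and 13 in general capillary endothelial. There, members called between types numbered 8 in alveolar type 2 epithelial over general capillary endothelial. There, the log2 fold change turned to 0.069 for Cfp in nonclassical monocyte.

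With at least 1000 UMIs per cell, genes called between GAL and WT numbered 3 in migratory dendritic and 0 in neutrophil.

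With no library block, genes called between types numbered 1182 in classical monocyte over nonclassical monocyte and 2037 in adventitial fibroblast over alveolar fibroblast. There, members called between types numbered 3 in classical monocyte over nonclassical monocyte.

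With each library left out in turn, genes called between GAL and WT ranged from 0 to 647 in whole lung, from 0 to 14 in alveolar macrophage, from 0 to 2 in interstitial macrophage, from 0 to 254 in classical monocyte, from 52 to 206 in nonclassical monocyte, from 5 to 87 in conventional type 1 dendritic, from 1 to 5 in conventional type 2 dendritic, from 10 to 21 in migratory dendritic, from 3 to 73 in neutrophil, from 0 to 1 in T, from 12 to 20 in natural killer, from 0 to 20 in B, from 22 to 229 in general capillary endothelial, from 13 to 93 in aerocyte endothelial, from 1 to 99 in alveolar fibroblast, from 1 to 45 in adventitial fibroblast, from 9 to 54 in myofibroblast, from 16 to 21 in smooth muscle and from 3 to 32 in ciliated.

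With each library left out in turn, members called ranged from 0 to 5 in classical monocyte, from 0 to 1 in conventional type 1 dendritic, from 0 to 1 in neutrophil, from 0 to 2 in natural killer, from 0 to 1 in B, from 0 to 2 in general capillary endothelial, from 0 to 1 in myofibroblast, from 0 to 1 in smooth muscle, from 5 to 9 in neutrophil over classical monocyte and from 3 to 5 in alveolar type 2 epithelial over general capillary endothelial.

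With each library left out in turn, log2 fold changes of GAL over WT ranged from −0.028 to 0.88 for C1qa in whole lung, from −0.035 to 0.97 for C1qc in whole lung, from −0.18 to 1.41 for C3 in whole lung, from −0.73 to 1.35 for Cfb in whole lung, from −0.53 to 0.091 for C5ar1 in whole lung, from −0.14 to 1.69 for C3 in alveolar macrophage, from −0.43 to 1.70 for Cfb in alveolar macrophage, from −0.48 to 0.083 for Cfp in alveolar macrophage, from −0.53 to 0.59 for C5ar1 in alveolar macrophage, from −0.18 to 0.25 for C1qa in interstitial macrophage, from −0.12 to 0.21 for C1qb in interstitial macrophage, from −0.10 to 0.15 for C1qc in interstitial macrophage, from −0.91 to 1.52 for C3 in interstitial macrophage, from −1.17 to 0.56 for C4b in interstitial macrophage, from −0.71 to 0.31 for Cfp in interstitial macrophage, from −0.0029 to 0.95 for C3ar1 in interstitial macrophage, from −0.33 to 0.58 for C5ar1 in interstitial macrophage, from −0.40 to 0.76 for C3 in classical monocyte, from −0.15 to 0.96 for Cfp in classical monocyte, from −0.095 to 0.76 for C5ar1 in classical monocyte, from −0.54 to 0.20 for Cfp in nonclassical monocyte, from −0.049 to 0.28 for C1qb in conventional type 1 dendritic, from −0.66 to 1.14 for C1qa in conventional type 2 dendritic, from −0.77 to 1.03 for C1qb in conventional type 2 dendritic, from −0.67 to 0.92 for C1qc in conventional type 2 dendritic, from −0.058 to 0.27 for C5ar1 in neutrophil, from −1.08 to 1.07 for C3 in alveolar fibroblast, from −0.69 to 0.70 for C4b in alveolar fibroblast, from −1.30 to 0.27 for Cfb in alveolar fibroblast, from −0.95 to 0.83 for C3 in adventitial fibroblast, from −0.28 to 0.37 for C4b in adventitial fibroblast, from −0.64 to 0.19 for Cfb in adventitial fibroblast, from −0.79 to 2.68 for C3 in myofibroblast, from −0.22 to 0.84 for C4b in myofibroblast and from −0.059 to 0.45 for C4b in smooth muscle.

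The direction turned without GAL replicate 1 to 0.016 for Cfp in alveolar macrophage, −0.18 for C1qa in interstitial macrophage, −0.12 for C1qb in interstitial macrophage, −0.10 for C1qc in interstitial macrophage, 0.23 for C3 in interstitial macrophage, −0.33 for C5ar1 in interstitial macrophage, −0.15 for Cfp in classical monocyte, −0.66 for C1qa in conventional type 2 dendritic, −0.77 for C1qb in conventional type 2 dendritic, −0.67 for C1qc in conventional type 2 dendritic, −0.023 for C5ar1 in neutrophil, 0.018 for C3 in alveolar fibroblast and 0.48 for C3 in adventitial fibroblast.

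The direction turned without GAL replicate 2 to −0.73 for Cfb in whole lung, −0.14 for C3 in alveolar macrophage, −0.43 for Cfb in alveolar macrophage, 0.045 for C5ar1 in alveolar macrophage, 0.27 for C4b in interstitial macrophage, 0.31 for Cfp in interstitial macrophage, −0.40 for C3 in classical monocyte, −0.095 for C5ar1 in classical monocyte, 0.070 for Cfp in nonclassical monocyte, −0.049 for C1qb in conventional type 1 dendritic, 0.039 for C4b in alveolar fibroblast, −0.18 for C4b in adventitial fibroblast and −0.21 for C3 in myofibroblast.

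The direction turned without WT replicate 1 to 0.083 for Cfp in alveolar macrophage, −0.067 for C1qa in interstitial macrophage, −0.076 for C1qb in interstitial macrophage, −0.016 for C1qc in interstitial macrophage, 1.52 for C3 in interstitial macrophage, 0.56 for C4b in interstitial macrophage, −0.0029 for C3ar1 in interstitial macrophage, −0.18 for C5ar1 in interstitial macrophage, 0.20 for Cfp in nonclassical monocyte, −0.058 for C5ar1 in neutrophil, 1.07 for C3 in alveolar fibroblast, 0.70 for C4b in alveolar fibroblast, 0.27 for Cfb in alveolar fibroblast, 0.83 for C3 in adventitial fibroblast and 0.19 for Cfb in adventitial fibroblast.

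The direction turned without WT replicate 2 to −0.028 for C1qa in whole lung, −0.035 for C1qc in whole lung, −0.18 for C3 in whole lung, −0.35 for Cfb in whole lung, 0.091 for C5ar1 in whole lung, 0.59 for C5ar1 in alveolar macrophage, 0.035 for Cfp in interstitial macrophage, −0.082 for C3 in classical monocyte, −0.28 for C4b in adventitial fibroblast, −0.79 for C3 in myofibroblast, −0.22 for C4b in myofibroblast and −0.059 for C4b in smooth muscle.

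Depth limits the rarer types, with as few as 31 cells in a library among the types tested between GAL and WT. Some types described by level held fewer, such as 15 and 12 alveolar type 1 cells in the WT libraries. Precision rests on 2 libraries per group.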
